A study of Mus musculus with 12 samples.

Results

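Cardiac gene expression in mice labelled EGFR KO, a knockout of the epidermal growth factor receptor (EGFR) in the heart, was set against that in WT mice at 7 weeks of age. The comparison used 6 of the 12 RNA-seq samples of the series, 3 from EGFR KO hearts (7wkKO) and 3 from WT hearts (7wkWT), and no treatment is named for either group. The other samples were taken at 9 weeks and are not analysed here. Members were the 11987 of 24340 gene rows, and the 15470 of 34534 isoform rows, that the authors had tested with Cuffdiff and given the status OK. Each group of 3 was held as a single value in FPKM, the fragments of a transcript scaled by its length and by library size. Depth and spread at the level of single samples cannot be seen in such values, so levels are given without an SD. The labels name neither the driver of the deletion nor the exons it removed, and do not state whether each sample was a separate animal. All p-values then measure the spread between these samples, which may be technical.

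EGFR is a receptor tyrosine kinase at the cell surface. Its ligands, among them heparin-binding EGF, are shed from membrane precursors, and the activated receptor signals through the MAPK and PI3K to AKT cascades. In heart muscle it is also transactivated by angiotensin and adrenergic receptors, and the study title ties it to PR72, the product of Ppp2r3a and a regulator of protein phosphatase 2A. Adult hearts under load commonly take up again genes of the fetal heart, and those genes are treated here only as a setting for the rest of the transcriptome.

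The gene named in the genotype was not lower in the samples labelled knockout. Egfr (mm10, chromosome 11, 16752203 to 16913907) had FPKM 1.64 in 7wkKO and 1.20 in 7wkWT in the authors' deposited table (log2 fold 0.46 ± 0.38, Cuffdiff q = 0.379). With the deleted exons unknown, such a level cannot serve as a check of the genotype. None of the 5 tested genes on each side of it on chromosome 11 was called, and the nearest to a call was Cobl, an actin nucleator, with FPKM 1.51 in 7wkKO and 1.01 in 7wkWT in the authors' deposited table (log2 fold 0.57 ± 0.37, Cuffdiff q = 0.158). Ppp2r3a had FPKM 65.2 in 7wkKO and 72.5 in 7wkWT in the authors' deposited table (log2 fold -0.15 ± 0.26, Cuffdiff q = 0.833). The labels name the material a cardiac cell, and the 24 cardiomyocyte markers examined were all tested. Myl2, the ventricular regulatory light chain, was the most abundant of them, with FPKM 21145 in 7wkKO and 24956 in 7wkWT in the authors' deposited table (Cuffdiff q = 0.926). Of those 24 markers 0 were called by Cuffdiff, 1 had an unadjusted p under 0.05, and their median log2 fold was -0.01. By the statistic alone, under a normal approximation, 0 of the 24 were called. That follows from the Cuffdiff result, since every gene called by the statistic was also called by Cuffdiff. The same holds for each list below with 0 called by Cuffdiff, so its 0 by the statistic adds no support.

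Genes changed more often upward than downward in 7wkKO. At a Cuffdiff q under 0.05 the authors' deposited table called 284 of 11987 genes (2.37%), of which 200 were higher (1.67%) and 84 lower (0.701%). The counts of calls in the lists below stand against these shares. An unadjusted p under 0.05 was reached by 1358 genes (11.3%), 729 of them higher and 629 lower. Genes named below that are in no list, and that are not among the largest or most abundant changes, were picked out after their values were seen. Every gene said below to rise, fall or be called passed the Cuffdiff test at that threshold, and 120 of the 284 stood at the smallest q the table holds, 0.004995. The called rises were larger than the falls. Of the genes called higher 47 differed by at least 2-fold, against 5 of those called lower, and the median log2 fold was 0.71 among rises and -0.59 among falls. Across all tested genes the median log2 fold was -0.000634 and the central 95% ran from -0.52 to 0.56. The genes called higher held 2.14% of all FPKM of tested genes in 7wkKO and 0.791% in 7wkWT. Those called lower held 0.398% in 7wkKO and 0.558% in 7wkWT. Errors of single folds, written ± below, are standard errors implied by the deposited test statistic, which is more cautious than the deposited p: a normal p built on the statistic called 14 genes, all higher and all among the 284.

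**Figure D1:**
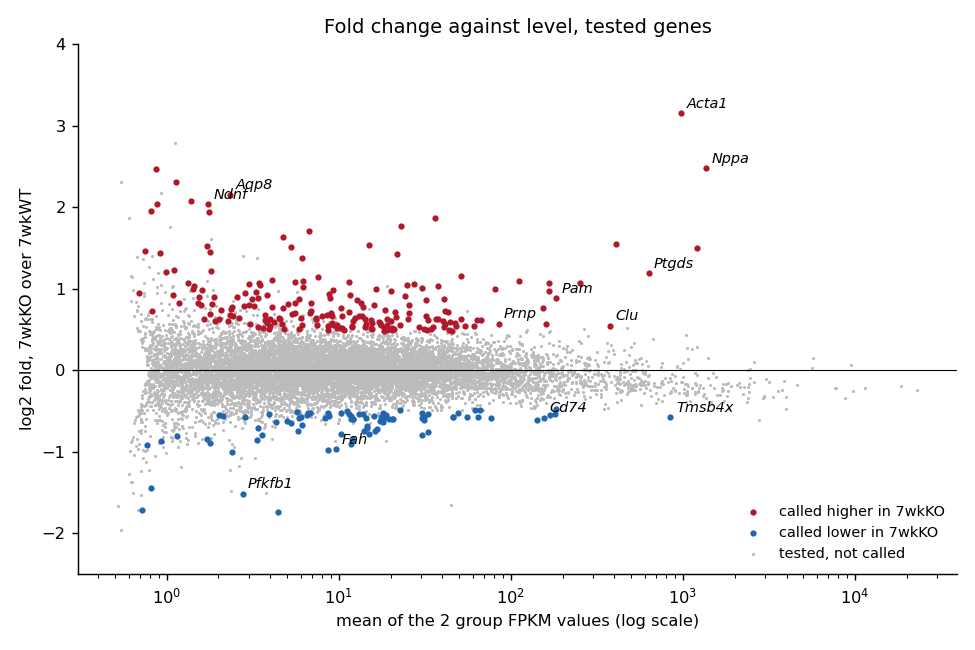
Log2 fold of 7wkKO over 7wkWT for each tested gene against the mean of the group FPKM values on a log axis, with genes called higher in red, called lower in blue and not called in grey. Rises reach a log2 fold of 3.15 (Acta1), falls mostly lie near -0.59, and 8 genes that were not called lie beyond the axis.

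The length of the transcript went along with the direction of the fold. When genes were divided into 5 groups of similar size by their longest GENCODE M21 transcript, the median log2 fold was -0.10 in the shortest group (109 to 1946 bases). It was -0.02, 0.02 and 0.04 in the next groups and 0.06 in the longest, from 5283 to 123179 bases. Of the genes called higher 75 lay in the longest group and 23 in the shortest, while of those called lower 13 lay in the longest and 23 in the shortest. Median lengths were 4458.5 bases for genes called higher, 3050 for genes called lower and 3390 for the 11534 tested genes with a length. Lists described below differ in length as well. Median lengths were 1355 bases for macrophage and myeloid markers, 1851 for the proteasome and 2195 for the thin filament. They were 4715.5 bases for the dystrophin complex, 5140 for matrix genes and 5257 for PI3K, AKT and mTOR genes. The part of length in the calls was not tested.

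**Figure D2:**
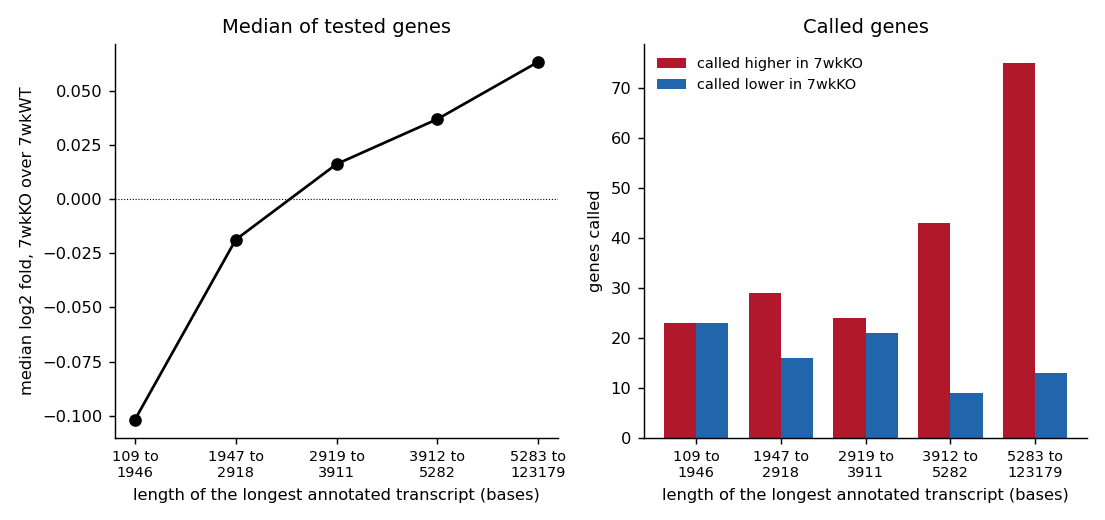
Left, median log2 fold of 7wkKO over 7wkWT in 5 groups of tested genes by the length of their longest annotated transcript. Right, genes called higher (red) and lower (blue) in 7wkKO in each group. The median climbs from -0.10 in the shortest group to 0.06 in the longest, where 75 genes were called higher and 13 lower.

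Structural genes of the contractile apparatus were among those that rose in 7wkKO, beyond the actin and myosin isoforms of the fetal heart. Of 34 tested genes of the Z-disc, the M-band and titin scaffolds, 8 were called higher and 0 lower, and their median log2 fold was 0.22. Ankrd23, a stretch-responsive ankyrin repeat protein of the titin N2A region, had FPKM 221 in 7wkKO and 113 in 7wkWT in the authors' deposited table (log2 fold 0.97 ± 0.30, Cuffdiff q = 0.004995). Its relative Ankrd1 had FPKM 1775 in 7wkKO and 629.8 in 7wkWT in the authors' deposited table (log2 fold 1.49 ± 0.44, Cuffdiff q = 0.004995). Both ankyrin repeat genes passed the test and were abundant in either group. Ankrd1 is also in the list of fetal and hypertrophic genes. Proteins of the Z-disc were also called. Myot, which encodes the Z-disc protein myotilin, had FPKM 26.5 in 7wkKO and 13.5 in 7wkWT in the authors' deposited table (log2 fold 0.97 ± 0.30, Cuffdiff q = 0.004995). Synpo2l, an actin-binding protein of that disc, was listed at FPKM 53.1 in 7wkKO and 28.9 in 7wkWT in the authors' deposited table (log2 fold 0.88). Flnc, the muscle filamin that crosslinks actin at the Z-disc, was higher as well, at FPKM 62.6 in 7wkKO and 40.6 in 7wkWT in the authors' deposited table. Mypn, which links titin and nebulin to alpha-actinin, rose to FPKM 37.8 in 7wkKO, against 26.9 in 7wkWT, in the authors' deposited table. The remaining calls were Synpo2 and the titin-associated ubiquitin ligase Trim55.

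Markers of skeletal muscle had values away from 0 beside these genes. Of 14 such markers 8 were tested, with a median log2 fold of 1.06 and 5 at an unadjusted p under 0.05 (4 higher, 1 lower). The summed level of all 14 was FPKM 4259 in 7wkKO and 2966 in 7wkWT. The rise in that sum came from Acta1, whose isoforms summed to FPKM 1755 in 7wkKO and 197.7 in 7wkWT. The list also holds Ckm, which is among the cardiomyocyte markers. The calls were Acta1, which was higher and is also a gene of the fetal heart, and Myl1, a myosin light chain, which was lower at FPKM 40.6 in 7wkKO and 58.6 in 7wkWT in the authors' deposited table. Atp2a1, the calcium pump of fast muscle, stood at FPKM 1.51 in 7wkKO and 0.334 in 7wkWT in the authors' deposited table (Cuffdiff q = 0.0699). Mylpf, a fast muscle light chain, stood at FPKM 4.05 in 7wkKO and 1.53 in 7wkWT in the authors' deposited table (Cuffdiff q = 0.0552). The myosin heavy chains of fast muscle were at or near 0: Myh4 was listed at 0 in both groups, Myh2 at 0 in 7wkKO and FPKM 0.00466 in 7wkWT, and Myh1 at FPKM 0.00921 in 7wkKO and 0.0142 in 7wkWT, all in the authors' deposited table. The part of skeletal muscle in the contractile genes was not tested.

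The thin filament list had 4 of 22 members called higher and 0 lower. Besides Acta1, the skeletal alpha-actin gene, they were Nebl and the Xin genes Xirp1 and Xirp2. All of them but Nebl are also in the list of fetal and hypertrophic genes. Nebl encodes nebulette, the short cardiac relative of nebulin, and had FPKM 16.5 in 7wkKO and 9.09 in 7wkWT in the authors' deposited table (log2 fold 0.86 ± 0.28, Cuffdiff q = 0.004995). Xirp2, an actin-binding Xin repeat protein of the intercalated disc, had FPKM 108 in 7wkKO and 54.1 in 7wkWT in the authors' deposited table (log2 fold 0.99 ± 0.34, Cuffdiff q = 0.004995). Xirp1 had FPKM 51.5 in 7wkKO and 31.2 in 7wkWT in the authors' deposited table (log2 fold 0.72 ± 0.26, Cuffdiff q = 0.004995). Abra, an actin-binding protein of striated muscle, was listed at FPKM 50.3 in 7wkKO and 24.7 in 7wkWT in the authors' deposited table (log2 fold 1.03). In the other direction, Tmsb4x, which encodes the actin-sequestering peptide thymosin beta-4, fell to FPKM 679.9 in 7wkKO, against 1012 in 7wkWT, in the authors' deposited table. It was the most abundant transcript called lower. Pdlim4, a PDZ and LIM domain protein of actin bundles, fell to FPKM 11.3 in 7wkKO, against 18.03 in 7wkWT, in the authors' deposited table. Fscn1, which encodes the actin-bundling protein fascin, was listed at FPKM 24.8 in 7wkKO and 35.8 in 7wkWT in the authors' deposited table (log2 fold -0.53). Of 20 members of the dystrophin complex and costamere 0 were called by Cuffdiff, with 3 at an unadjusted p under 0.05 and 0 by the statistic alone.

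Promoters of 8365 tested genes could be matched to RefSeq sequences (GRCm38.p6, the same build as mm10), 137 of them called higher and 54 called lower. In the 300 bases from 250 before to 50 after the start, 6 motifs of factors active in muscle or stress responses were searched on both strands. The CArG box of serum response factor was in 5 promoters of genes called higher (3.65%), 1 called lower (1.85%) and 1.43% of all. The MEF2 box was in 7 promoters of genes called higher (5.11%), 2 called lower (3.70%) and 1.91% of all. CATTCCT, the site of TEAD factors, was in 11 promoters of genes called higher (8.03%), 4 called lower (7.41%) and 3.97% of all. The AP-1 site TGANTCA was in 5 promoters of genes called higher (3.65%), 3 called lower (5.56%) and 4.69% of all. The E-box CACGTG was in 13 promoters of genes called higher (9.49%), 4 called lower (7.41%) and 10.6% of all. TGATGNAAT, the composite site of ATF4, was in 0 promoters of called genes, and in 0.383% of all. These are counts of letters in a window and not of bound sites. The 250 bases before the start are shown for Acta1, Ankrd1 and Nppb, abundant stretch-responsive genes called higher that hold a CArG box or CATTCCT. Most promoters of genes called higher held neither. In the sequences below both motifs are in capitals on either strand (AGGAATG is CATTCCT read on the other strand). No motif overlapped another in them.
Acta1 (chr8:123894776-123895025, minus strand): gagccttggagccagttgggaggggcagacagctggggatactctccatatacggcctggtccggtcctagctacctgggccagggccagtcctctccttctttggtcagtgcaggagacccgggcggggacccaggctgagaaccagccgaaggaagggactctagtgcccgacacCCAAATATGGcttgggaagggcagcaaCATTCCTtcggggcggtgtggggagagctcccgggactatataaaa
Ankrd1 (chr19:36119845-36120094, minus strand): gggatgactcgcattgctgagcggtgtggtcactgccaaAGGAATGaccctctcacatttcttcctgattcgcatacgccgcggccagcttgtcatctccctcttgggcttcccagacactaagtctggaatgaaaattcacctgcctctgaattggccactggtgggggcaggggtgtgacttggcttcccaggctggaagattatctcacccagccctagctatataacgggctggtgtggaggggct
Nppb (chr4:147985650-147985899, plus strand): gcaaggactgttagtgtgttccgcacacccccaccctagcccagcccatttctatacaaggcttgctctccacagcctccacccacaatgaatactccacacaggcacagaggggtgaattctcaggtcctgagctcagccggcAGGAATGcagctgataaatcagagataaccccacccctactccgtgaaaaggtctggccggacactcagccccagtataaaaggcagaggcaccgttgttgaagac
The Acta1 promoter held a CArG box beginning 73 bases before the start and CATTCCT at 46 bases before it. Ankrd1 and Nppb, the gene of brain natriuretic peptide, held CATTCCT on the minus strand of the gene, 211 and 106 bases before the start. Nppb had FPKM 608 in 7wkKO and 208 in 7wkWT in the authors' deposited table (log2 fold 1.55 ± 0.30, Cuffdiff q = 0.004995).

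Calcium handling genes were called in a few members, with the list as a whole centred near 0. Of 49 tested members 4 were called higher and 0 lower, and the median log2 fold was 0.02. Sln, which encodes sarcolipin, an inhibitor of the sarcoplasmic calcium pump, had FPKM 70.8 in 7wkKO and 31.7 in 7wkWT in the authors' deposited table (log2 fold 1.16 ± 0.36, Cuffdiff q = 0.004995). Casq1, the calsequestrin of fast skeletal muscle, had FPKM 37.1 in 7wkKO and 17.8 in 7wkWT in the authors' deposited table (log2 fold 1.06 ± 0.29, Cuffdiff q = 0.004995). Cacna2d2, an auxiliary subunit of voltage-gated calcium channels, had FPKM 4.36 in 7wkKO and 2.23 in 7wkWT in the authors' deposited table (log2 fold 0.97 ± 0.37, Cuffdiff q = 0.004995). Cacna1h, a T-type calcium channel of the embryonic heart, was higher as well, at FPKM 3.65 in 7wkKO and 2.46 in 7wkWT in the authors' deposited table. The genes that carry most calcium cycling in the ventricle were not called. Atp2a2, the calcium pump itself, had FPKM 2681 in 7wkKO and 2492 in 7wkWT in the authors' deposited table (Cuffdiff q = 0.981). Pln, which encodes its regulator phospholamban, had FPKM 2473 in 7wkKO and 2445 in 7wkWT in the authors' deposited table (Cuffdiff q = 0.994). Among 26 potassium channel genes 0 were called by Cuffdiff, 4 had an unadjusted p under 0.05 and 0 were called by the statistic alone. Hcn4, the pacemaker channel of the sinus node, rose to FPKM 2.58 in 7wkKO, against 1.54 in 7wkWT, in the authors' deposited table. Fgf12, an intracellular modulator of sodium channels, was listed at FPKM 1.34 in 7wkKO and 0.492 in 7wkWT in the authors' deposited table (log2 fold 1.44). Sln, Cacna2d2, Hcn4 and Fgf12 are also in the list of atrial and conduction markers, of which 11 of 22 tested were called higher. Ano10, of the anoctamin family, was lower, with FPKM 14.6 in 7wkKO and 21.9 in 7wkWT in the authors' deposited table (log2 fold -0.58 ± 0.26, Cuffdiff q = 0.00881).

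Receptor and cAMP signalling genes were called in both directions. In the list of adrenergic, muscarinic and cAMP genes 5 of 51 were called higher and 1 lower. Chrm2, the main muscarinic receptor of the heart, had FPKM 11.5 in 7wkKO and 6.05 in 7wkWT in the authors' deposited table (log2 fold 0.93 ± 0.41, Cuffdiff q = 0.0219). Adra1a, the alpha-1A adrenergic receptor, had FPKM 4.52 in 7wkKO and 2.95 in 7wkWT in the authors' deposited table (log2 fold 0.61 ± 0.32, Cuffdiff q = 0.0449). Adcy5, a major cardiac adenylyl cyclase, had FPKM 21.2 in 7wkKO and 15.3 in 7wkWT in the authors' deposited table (log2 fold 0.48 ± 0.25, Cuffdiff q = 0.0433). Genes that shape the cAMP signal were called on both the synthesis and the breakdown side. Pde3a, a phosphodiesterase that breaks down cAMP, was higher as well, at FPKM 5.60 in 7wkKO and 3.76 in 7wkWT in the authors' deposited table. Akap6, which anchors protein kinase A at the nuclear envelope of myocytes, rose to FPKM 18.8 in 7wkKO, against 12.6 in 7wkWT, in the authors' deposited table. The opposite was seen for another anchor, Akap5, with FPKM 0.654 in 7wkKO and 1.19 in 7wkWT in the authors' deposited table (log2 fold -0.87 ± 0.40, Cuffdiff q = 0.0219). Of genes in no list, Gnao1, the alpha subunit of the G protein Go, was listed at FPKM 17.6 in 7wkKO and 10.2 in 7wkWT in the authors' deposited table (log2 fold 0.78). Gnb3, a G protein beta subunit, was higher as well, at FPKM 8.28 in 7wkKO and 4.09 in 7wkWT in the authors' deposited table. Other subunits were not called, such as Gnb4, which stood at FPKM 6.12 in 7wkKO and 8.17 in 7wkWT in the authors' deposited table (Cuffdiff q = 0.217).

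Vasoactive peptide systems changed in opposite directions. Of 41 tested members 4 were called higher and 2 lower. The higher calls were Npr3, Edn3, Nppa and Nppb, and Nppa and Nppb are also in the list of fetal and hypertrophic genes. Npr3, the clearance receptor of natriuretic peptides, had FPKM 6.62 in 7wkKO and 4.10 in 7wkWT in the authors' deposited table (log2 fold 0.69 ± 0.28, Cuffdiff q = 0.004995). Edn3, which encodes endothelin 3, had FPKM 1.90 in 7wkKO and 0.382 in 7wkWT in the authors' deposited table (log2 fold 2.31 ± 0.60, Cuffdiff q = 0.004995). Both genes of the apelin system were lower. Apln, the ligand, had FPKM 6.65 in 7wkKO and 9.95 in 7wkWT in the authors' deposited table (log2 fold -0.58 ± 0.28, Cuffdiff q = 0.0278). Aplnr, its receptor, fell to FPKM 15.6 in 7wkKO, against 23.6 in 7wkWT, in the authors' deposited table. Pam, which encodes the enzyme that amidates peptide hormones and is abundant in atrial granules, was listed at FPKM 238 in 7wkKO and 129 in 7wkWT in the authors' deposited table (log2 fold 0.89). Ptgds, a lipocalin-type prostaglandin D synthase, was the most abundant of the genes called higher after Nppa, Ankrd1 and Acta1, with FPKM 879 in 7wkKO and 385 in 7wkWT in the authors' deposited table (log2 fold 1.19 ± 0.29, Cuffdiff q = 0.004995).

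In the lists of growth factor signalling all calls were higher. Of 44 tested receptor tyrosine kinases, ligands and adaptors 3 were called higher and 0 lower, and the median log2 fold was -0.02. Those calls were the EGFR relative Erbb3, the EGFR ligand Hbegf and Irs2. Irs2, an adaptor of the insulin receptor, had FPKM 5.19 in 7wkKO and 3.04 in 7wkWT in the authors' deposited table (log2 fold 0.77 ± 0.30, Cuffdiff q = 0.004995). Foxo3, a transcription factor that AKT holds in the cytoplasm, had FPKM 14.3 in 7wkKO and 8.73 in 7wkWT in the authors' deposited table (log2 fold 0.71 ± 0.27, Cuffdiff q = 0.004995). Trib1, a pseudokinase, had FPKM 16.9 in 7wkKO and 11.7 in 7wkWT in the authors' deposited table (log2 fold 0.53 ± 0.26, Cuffdiff q = 0.0257). With Foxo3 and Trib1, 2 of 31 PI3K, AKT and mTOR genes were called higher and 0 lower. Ptk2b, a calcium-sensitive focal adhesion kinase, was higher as well, at FPKM 3.03 in 7wkKO and 1.77 in 7wkWT in the authors' deposited table. Rasgrp2, an exchange factor for Rap, was lower, with FPKM 10.4 in 7wkKO and 17.5 in 7wkWT in the authors' deposited table (log2 fold -0.75 ± 0.28, Cuffdiff q = 0.004995). Dok2, an adaptor that dampens receptor tyrosine kinase signalling in blood cells, was lower as well, with FPKM 1.60 in 7wkKO and 3.21 in 7wkWT in the authors' deposited table (log2 fold -1.002 ± 0.46, Cuffdiff q = 0.0257). The 49 genes of the MAPK cascade and its feedback had 2 called higher, Cnksr1 and Rasl11b, and 0 lower.

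Phosphatase genes are of interest here through the study title. They were taken by the start of their symbols, so the list holds Ptpr genes such as Ptprn beside phosphatase subunits. Of 100 tested, 3 were called higher (Ppp1r12b, Ppp1r3a and Ptprn) and 0 lower. That is 3% called, near the 2.37% of all tested genes, and the median log2 fold was 0.02. Ppp1r12b, the myosin-binding subunit of the phosphatase 1 holoenzyme of muscle, had FPKM 20.3 in 7wkKO and 11.6 in 7wkWT in the authors' deposited table (log2 fold 0.80 ± 0.27, Cuffdiff q = 0.004995). Ppp1r3a, which targets phosphatase 1 to glycogen, had FPKM 30.5 in 7wkKO and 19.7 in 7wkWT in the authors' deposited table (log2 fold 0.63 ± 0.26, Cuffdiff q = 0.004995). Ppp2ca, the catalytic subunit of protein phosphatase 2A, had FPKM 131 in 7wkKO and 121 in 7wkWT in the authors' deposited table (Cuffdiff q = 0.901).

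Genes of fuel metabolism were called singly, in both directions, against medians near 0. Among 60 genes of glycolysis, glycogen and pyruvate 3 were called higher and 1 lower, with a median of 0.08. Enzymes that act on glycogen and pyruvate were among those called higher. Pdpr, a regulatory subunit of pyruvate dehydrogenase phosphatase, had FPKM 8.77 in 7wkKO and 4.96 in 7wkWT in the authors' deposited table (log2 fold 0.82 ± 0.31, Cuffdiff q = 0.004995). Gbe1, the glycogen branching enzyme, had FPKM 21.6 in 7wkKO and 15.1 in 7wkWT in the authors' deposited table (log2 fold 0.51 ± 0.26, Cuffdiff q = 0.0391). In the other direction, Pfkfb1, a bifunctional enzyme that sets the level of fructose 2,6-bisphosphate, was called lower, with FPKM 1.43 in 7wkKO and 4.09 in 7wkWT in the authors' deposited table (log2 fold -1.51 ± 0.47, Cuffdiff q = 0.004995). Fbp2, the muscle fructose bisphosphatase, which is in none of the lists, was also lower, with FPKM 22.2 in 7wkKO and 38.6 in 7wkWT in the authors' deposited table (log2 fold -0.80 ± 0.27, Cuffdiff q = 0.004995).

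Among 64 genes of fatty acid uptake and oxidation 1 was called higher and 2 lower. Pdk4, the kinase that switches off pyruvate dehydrogenase, had FPKM 194 in 7wkKO and 115 in 7wkWT in the authors' deposited table (log2 fold 0.76 ± 0.29, Cuffdiff q = 0.004995). Fitm1, a lipid droplet protein of muscle, had FPKM 152 in 7wkKO and 212 in 7wkWT in the authors' deposited table (log2 fold -0.48 ± 0.25, Cuffdiff q = 0.0458). Fabp5, a fatty acid binding protein, had FPKM 51.6 in 7wkKO and 72.5 in 7wkWT in the authors' deposited table (log2 fold -0.49 ± 0.26, Cuffdiff q = 0.0485). G0s2, an inhibitor of the triglyceride lipase ATGL, was lower too, with FPKM 61.6 in 7wkKO and 92.2 in 7wkWT in the authors' deposited table (log2 fold -0.58 ± 0.26, Cuffdiff q = 0.00881). A gene of triglyceride synthesis and a regulator of sterol synthesis were called higher. Gpam, the mitochondrial enzyme that begins triglyceride synthesis, rose to FPKM 33.4 in 7wkKO, against 16.1 in 7wkWT, in the authors' deposited table. Insig1, which retains the sterol sensor in the endoplasmic reticulum, was listed at FPKM 10.3 in 7wkKO and 7.10 in 7wkWT in the authors' deposited table (log2 fold 0.54). Prkab2, a beta subunit of AMP-activated protein kinase, the energy sensor of the cell, was higher as well, at FPKM 11.2 in 7wkKO and 6.90 in 7wkWT in the authors' deposited table. Prkaa2, an alpha subunit of that kinase, rose to FPKM 18.4 in 7wkKO, against 12.9 in 7wkWT, in the authors' deposited table. The other tested subunits of it were not called.

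Of 32 genes of ketone, branched-chain and other amino acid breakdown 1 was called higher and 2 lower. Bdh1, the mitochondrial dehydrogenase that interconverts ketone bodies, had FPKM 41.6 in 7wkKO and 22.9 in 7wkWT in the authors' deposited table (log2 fold 0.86 ± 0.27, Cuffdiff q = 0.004995). Adh1, an alcohol and retinol dehydrogenase, had FPKM 24.5 in 7wkKO and 41.4 in 7wkWT in the authors' deposited table (log2 fold -0.76 ± 0.27, Cuffdiff q = 0.004995). Fah, the last enzyme of tyrosine breakdown, had FPKM 6.54 in 7wkKO and 12.8 in 7wkWT in the authors' deposited table (log2 fold -0.97 ± 0.32, Cuffdiff q = 0.004995). Cyp26b1, which degrades retinoic acid and is in none of the lists, was higher, with FPKM 8.77 in 7wkKO and 3.38 in 7wkWT in the authors' deposited table (log2 fold 1.38 ± 0.30, Cuffdiff q = 0.004995). Abat, which breaks down GABA and is in none of the lists either, was higher, with FPKM 4.67 in 7wkKO and 2.22 in 7wkWT in the authors' deposited table (log2 fold 1.07 ± 0.31, Cuffdiff q = 0.004995). In nucleotide metabolism 3 of 43 genes were called higher and 0 lower. Nt5e, the surface enzyme that makes adenosine from AMP, was listed at FPKM 6.90 in 7wkKO and 4.26 in 7wkWT in the authors' deposited table (log2 fold 0.70). Uck2, a uridine and cytidine kinase, was higher as well, at FPKM 26.4 in 7wkKO and 16.8 in 7wkWT in the authors' deposited table.

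**Figure D3:**
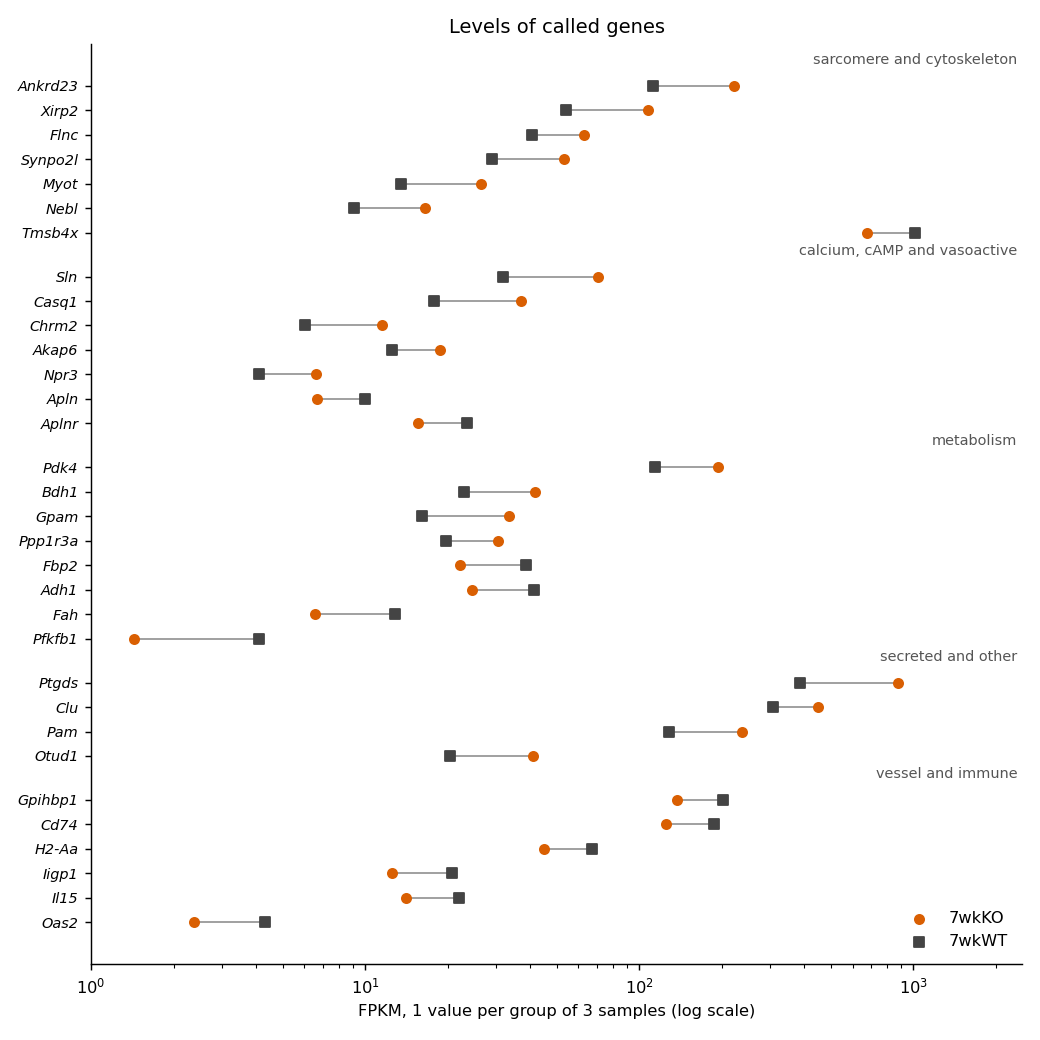
FPKM of called genes in 7wkKO (orange circles) and 7wkWT (dark squares) on a log axis, 1 value per group of 3 samples. The sarcomere genes of the Z-disc and thin filament, Gpam and Pam lie to the right of their WT level, and the apelin, endothelial and antigen presentation genes lie to the left.

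Transporters were called in both directions. Of 203 tested solute carriers 5 were called higher and 3 lower (3.94% called). Slc17a7, the vesicular glutamate transporter 1, had FPKM 15.6 in 7wkKO and 7.38 in 7wkWT in the authors' deposited table (log2 fold 1.08 ± 0.27, Cuffdiff q = 0.004995). Slc38a1, a neutral amino acid transporter, had FPKM 6.49 in 7wkKO and 3.68 in 7wkWT in the authors' deposited table (log2 fold 0.82 ± 0.27, Cuffdiff q = 0.004995). Slc4a4, a sodium bicarbonate cotransporter, had FPKM 3.99 in 7wkKO and 2.76 in 7wkWT in the authors' deposited table (log2 fold 0.53 ± 0.28, Cuffdiff q = 0.0474). In the other direction, Slc41a3, a mitochondrial magnesium transporter, fell to FPKM 7.55 in 7wkKO, against 13.003 in 7wkWT, in the authors' deposited table. Slc28a2, a concentrative nucleoside transporter, was listed at FPKM 9.67 in 7wkKO and 14.6 in 7wkWT in the authors' deposited table (log2 fold -0.60). Aqp8, a water channel better known from gut and pancreas, rose to FPKM 3.81 in 7wkKO, against 0.856 in 7wkWT, in the authors' deposited table. Atp8a2, a phospholipid flippase of neurons, rose to FPKM 2.55 in 7wkKO, against 0.889 in 7wkWT, in the authors' deposited table.

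Among lists of protein homeostasis genes, the ubiquitin and autophagy lists had shares of calls near the 2.37% of all tested genes. The heat shock list had a larger share, over few genes. Of 283 ubiquitin ligase and deubiquitinase genes 5 were called higher and 0 lower, a share of 1.77% that is near the 1.67% of all tested genes called higher. Fbxo40, a muscle F-box protein that targets IRS1, had FPKM 31.7 in 7wkKO and 16.8 in 7wkWT in the authors' deposited table (log2 fold 0.91 ± 0.27, Cuffdiff q = 0.004995). Rnf144b, another ubiquitin ligase, had FPKM 16.1 in 7wkKO and 10.2 in 7wkWT in the authors' deposited table (log2 fold 0.66 ± 0.27, Cuffdiff q = 0.004995). Otud1, a deubiquitinase that the list does not hold, had FPKM 40.9 in 7wkKO and 20.4 in 7wkWT in the authors' deposited table (log2 fold 1.01 ± 0.26, Cuffdiff q = 0.004995). Park2, the ubiquitin ligase parkin, was listed at FPKM 4.58 in 7wkKO and 2.86 in 7wkWT in the authors' deposited table (log2 fold 0.68). It was the 1 call among 47 autophagy and lysosome genes (2.13%). Of 39 heat shock genes 2 were called higher and 2 lower (10.3% called). Hspa1l was higher as well, at FPKM 8.48 in 7wkKO and 3.98 in 7wkWT in the authors' deposited table, and its neighbour Hspa1a fell to FPKM 8.20 in 7wkKO, against 15.3 in 7wkWT, in the authors' deposited table. Hspa1b was listed at FPKM 11.1 in 7wkKO and 19.1 in 7wkWT in the authors' deposited table (log2 fold -0.78). Hspa1a and Hspa1b are nearly identical, so the division of reads between them is uncertain. Dnajb4, a cochaperone, rose to FPKM 81.4 in 7wkKO, against 52.9 in 7wkWT, in the authors' deposited table. Clu, which encodes the secreted chaperone clusterin, rose to FPKM 449.8 in 7wkKO, against 308 in 7wkWT, in the authors' deposited table. The proteasome list had 0 of 48 called by Cuffdiff, 2 at an unadjusted p under 0.05 and 0 by the statistic alone.

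Transcriptional regulators were called as single genes. Of 25 immediate early genes 4 were called higher (Atf3, Cyr61, Ier5 and Myc) and 1 lower. Cyr61 is also in the list of fetal and hypertrophic genes. Atf3, a stress-induced transcription factor, had FPKM 11.5 in 7wkKO and 6.22 in 7wkWT in the authors' deposited table (log2 fold 0.89 ± 0.32, Cuffdiff q = 0.004995). Nr4a1, an orphan nuclear receptor, was lower, with FPKM 12.97 in 7wkKO and 19.1 in 7wkWT in the authors' deposited table (log2 fold -0.56 ± 0.29, Cuffdiff q = 0.0296). In the clock list 1 of 22 was called higher and 1 lower. Nfil3, a repressor of clock output, had FPKM 9.85 in 7wkKO and 6.21 in 7wkWT in the authors' deposited table (log2 fold 0.67 ± 0.30, Cuffdiff q = 0.0200). Nr1d1, which encodes REV-ERB alpha, had FPKM 36.8 in 7wkKO and 54.8 in 7wkWT in the authors' deposited table (log2 fold -0.57 ± 0.25, Cuffdiff q = 0.004995). Dbp, an activator of the same output and an abundant member of the list, had FPKM 115 in 7wkKO and 158 in 7wkWT in the authors' deposited table (Cuffdiff q = 0.0865). Tead1, the DNA-binding partner of YAP in muscle, was listed at FPKM 24.5 in 7wkKO and 17.3 in 7wkWT in the authors' deposited table (log2 fold 0.50). Tbx20, a T-box factor of the developing heart, was higher as well, at FPKM 20.6 in 7wkKO and 13.6 in 7wkWT in the authors' deposited table. Tbx15, a T-box factor better known from skeleton and muscle, rose to FPKM 1.46 in 7wkKO, against 0.265 in 7wkWT, in the authors' deposited table. Tead1 and Tbx20 were 2 of the 3 calls, all higher, among 31 cardiac transcription factors. The other was Ankrd1, which is also in the list of fetal and hypertrophic genes. Atf6, a sensor of endoplasmic reticulum stress, was listed at FPKM 22.7 in 7wkKO and 15.5 in 7wkWT in the authors' deposited table (log2 fold 0.55), the 1 call among 29 chaperones of that compartment. Myc, the growth-promoting transcription factor, was higher as well, at FPKM 7.21 in 7wkKO and 2.33 in 7wkWT in the authors' deposited table.

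Most endothelial markers had lower values in 7wkKO, and few passed the test. Of 32 tested markers 30 had a log2 fold below 0, 22 had an unadjusted p under 0.05 (all lower) and 3 were called lower, with a median log2 fold of -0.35. Their summed level was FPKM 4063 in 7wkKO and 5261 in 7wkWT. Gpihbp1, which carries lipoprotein lipase across the capillary wall, had FPKM 137 in 7wkKO and 202 in 7wkWT in the authors' deposited table (log2 fold -0.55 ± 0.25, Cuffdiff q = 0.0124). The other calls were Apln and Aplnr. Cdh5, which encodes vascular endothelial cadherin, had FPKM 116 in 7wkKO and 157 in 7wkWT in the authors' deposited table (Cuffdiff q = 0.117). Fabp4, the most abundant marker in the list, had FPKM 1545 in 7wkKO and 2140 in 7wkWT in the authors' deposited table (Cuffdiff q = 0.111). In bulk samples, fewer endothelial cells and less RNA per cell cannot be told apart. Other cell types also had medians away from 0. They were 0.11 over 19 fibroblast markers, with 1 called higher, and -0.04 over 17 mural markers, with 1 called lower. Over 25 macrophage and myeloid markers the median was -0.18, with 1 called lower. Short lists had medians near or below the endothelial one. It was -0.43 over 6 erythroid and platelet markers, with 0 called by Cuffdiff and 2 at an unadjusted p under 0.05. Over 4 epicardial markers it was -0.33, with Krt18 called higher. The median was 0.14 over 5 adipocyte markers and 0.17 over 10 Schwann and neuronal markers.

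Other genes known from endothelium were picked out of the 84 lower calls after their values were seen, so they add no support to the list. Clec14a, a C-type lectin of vessels, had FPKM 8.48 in 7wkKO and 12.2 in 7wkWT in the authors' deposited table (log2 fold -0.52 ± 0.26, Cuffdiff q = 0.0219). Pcdh12, an endothelial protocadherin, had FPKM 7.14 in 7wkKO and 10.2 in 7wkWT in the authors' deposited table (log2 fold -0.52 ± 0.26, Cuffdiff q = 0.0257). Spns2, which exports sphingosine 1-phosphate from endothelium, had FPKM 7.04 in 7wkKO and 10.4 in 7wkWT in the authors' deposited table (log2 fold -0.56 ± 0.27, Cuffdiff q = 0.0296). Meox2, a homeobox factor of cardiac capillaries, fell to FPKM 11.6 in 7wkKO, against 17.3 in 7wkWT, in the authors' deposited table. Bcl6b, a repressor of the BCL6 family, was listed at FPKM 9.25 in 7wkKO and 13.1 in 7wkWT in the authors' deposited table (log2 fold -0.50). Nrarp, a Notch-induced feedback inhibitor, was lower as well, at FPKM 9.40 in 7wkKO and 13.6 in 7wkWT in the authors' deposited table. Ly6a, the stem cell antigen 1 gene, which vessels also express, fell to FPKM 147 in 7wkKO, against 213 in 7wkWT, in the authors' deposited table.

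Genes of the interferon response and antigen presentation were called in 1 direction, in which 6 of 51 passed as lower and 0 as higher, with 45 below 0 and a median log2 fold of -0.28. Of the 6, 4 belong to MHC class II, which presents peptides to helper T cells. H2-Aa, the alpha chain of I-A, had FPKM 44.8 in 7wkKO and 66.99 in 7wkWT in the authors' deposited table (log2 fold -0.58 ± 0.26, Cuffdiff q = 0.0235). H2-Ab1, its beta chain, had FPKM 36.8 in 7wkKO and 54.9 in 7wkWT in the authors' deposited table (log2 fold -0.57 ± 0.26, Cuffdiff q = 0.0124). H2-Eb1, a beta chain of I-E, had FPKM 24.9 in 7wkKO and 37.2 in 7wkWT in the authors' deposited table (log2 fold -0.58 ± 0.26, Cuffdiff q = 0.0200). Cd74, the invariant chain that escorts class II molecules, was listed at FPKM 125 in 7wkKO and 188 in 7wkWT in the authors' deposited table (log2 fold -0.58). The other calls were Iigp1 and Oas2, while 6 of the 51 had a log2 fold above 0, up to 0.31 for Gbp6. Iigp1, an interferon-inducible GTPase, was lower as well, at FPKM 12.5 in 7wkKO and 20.7 in 7wkWT in the authors' deposited table. Oas2, an oligoadenylate synthetase, fell to FPKM 2.38 in 7wkKO, against 4.32 in 7wkWT, in the authors' deposited table. B2m, the light chain of class I molecules, had FPKM 403 in 7wkKO and 482 in 7wkWT in the authors' deposited table (Cuffdiff q = 0.542). Among the 72 tested cytokines, chemokines and receptors 3 were called lower and 0 higher, with a median of -0.20. Il15, a cytokine that maintains natural killer and memory T cells, was listed at FPKM 14.1 in 7wkKO and 21.9 in 7wkWT in the authors' deposited table (log2 fold -0.63). Cxcl9, an interferon-gamma-induced chemokine, was lower as well, at FPKM 2.57 in 7wkKO and 4.20 in 7wkWT in the authors' deposited table. Tnfsf10, which encodes TRAIL, fell to FPKM 4.70 in 7wkKO, against 6.68 in 7wkWT, in the authors' deposited table. Of 20 lymphocyte markers 3 were tested, all below 0, with a median of -0.31, 0 called by Cuffdiff, 1 at an unadjusted p under 0.05 and a summed level of FPKM 14.2 in 7wkKO and 18.5 in 7wkWT. Cd79b, a chain of the B cell receptor, stood at FPKM 0.319 in 7wkKO and 1.04 in 7wkWT in the authors' deposited table (log2 fold -1.71, Cuffdiff q = 0.164). Cd52, a surface antigen of lymphocytes, stood at FPKM 10.3 in 7wkKO and 12.7 in 7wkWT in the authors' deposited table (Cuffdiff q = 0.758). Ptprc, which encodes the pan-leukocyte marker CD45, was at FPKM 1.37 in 7wkKO and 1.48 in 7wkWT in the authors' deposited table (Cuffdiff q = 0.956). The part of blood-derived cells and of vessels in the class II difference was not tested.

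The promoters of H2-Aa and H2-Eb1 are shown as called class II genes in which a form of the Y box of class II promoters was found. For H2-Ab1 and Cd74, also called lower, no such box was found. Either the letters were absent there or no promoter was matched. CTGATTGG, a form of that box chosen after the values were seen, is in capitals. It was in 6 of 54 promoters of genes called lower, 9 of 137 called higher and 479 of all 8365 (5.73%). The 6 include H2-Aa and H2-Eb1, for which the box was chosen, and the nearly identical Hspa1a and Hspa1b, so nothing is read from their number.
H2-Aa (chr17:34287824-34288073, minus strand): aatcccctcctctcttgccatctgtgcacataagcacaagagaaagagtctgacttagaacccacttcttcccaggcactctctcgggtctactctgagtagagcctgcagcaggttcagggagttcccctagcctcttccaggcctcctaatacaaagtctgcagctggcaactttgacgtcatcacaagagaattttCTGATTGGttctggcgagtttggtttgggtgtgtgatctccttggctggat
H2-Eb1 (chr17:34305617-34305866, plus strand): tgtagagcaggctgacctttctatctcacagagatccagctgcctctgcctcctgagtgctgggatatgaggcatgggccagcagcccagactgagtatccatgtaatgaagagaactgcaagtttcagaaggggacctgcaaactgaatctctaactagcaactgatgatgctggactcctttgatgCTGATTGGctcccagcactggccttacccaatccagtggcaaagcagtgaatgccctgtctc
The box began 51 bases before the start of H2-Aa and 62 bases before that of H2-Eb1. The letters were also in promoters of called genes outside the antigen presentation list, among them Pdk4.

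Several large functional groups had medians below 0 and no called gene. Of 96 respiratory chain genes 86 had a log2 fold below 0, the median was -0.19, and 0 were called by Cuffdiff, with 9 at an unadjusted p under 0.05 and 0 by the statistic alone. Of 90 cytosolic ribosomal protein genes 86 were below 0, the median was -0.17, 0 were called by Cuffdiff, 6 had an unadjusted p under 0.05 and 0 were called by the statistic. Median transcript lengths were 1200 bases in the first of these lists and 1049 in the second, both inside the shortest of the 5 length groups, whose median was -0.10. Endothelial markers had a median length of 3324 bases and interferon genes one of 2597. Cox7a1, the muscle isoform of a complex IV subunit, had FPKM 3314 in 7wkKO and 4611 in 7wkWT in the authors' deposited table (Cuffdiff q = 0.0978). Rplp1, a protein of the ribosomal stalk, had FPKM 1208 in 7wkKO and 1401 in 7wkWT in the authors' deposited table (Cuffdiff q = 0.704). The citric acid cycle, 28 genes, had a median of 0.07, and translation factors and tRNA synthetases, 44 genes, one of 0.06. In both lists 0 were called by Cuffdiff, with 1 at an unadjusted p under 0.05 in each and 0 by the statistic alone. In all, 23 of 79 lists had no called gene.

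**Figure D4:**
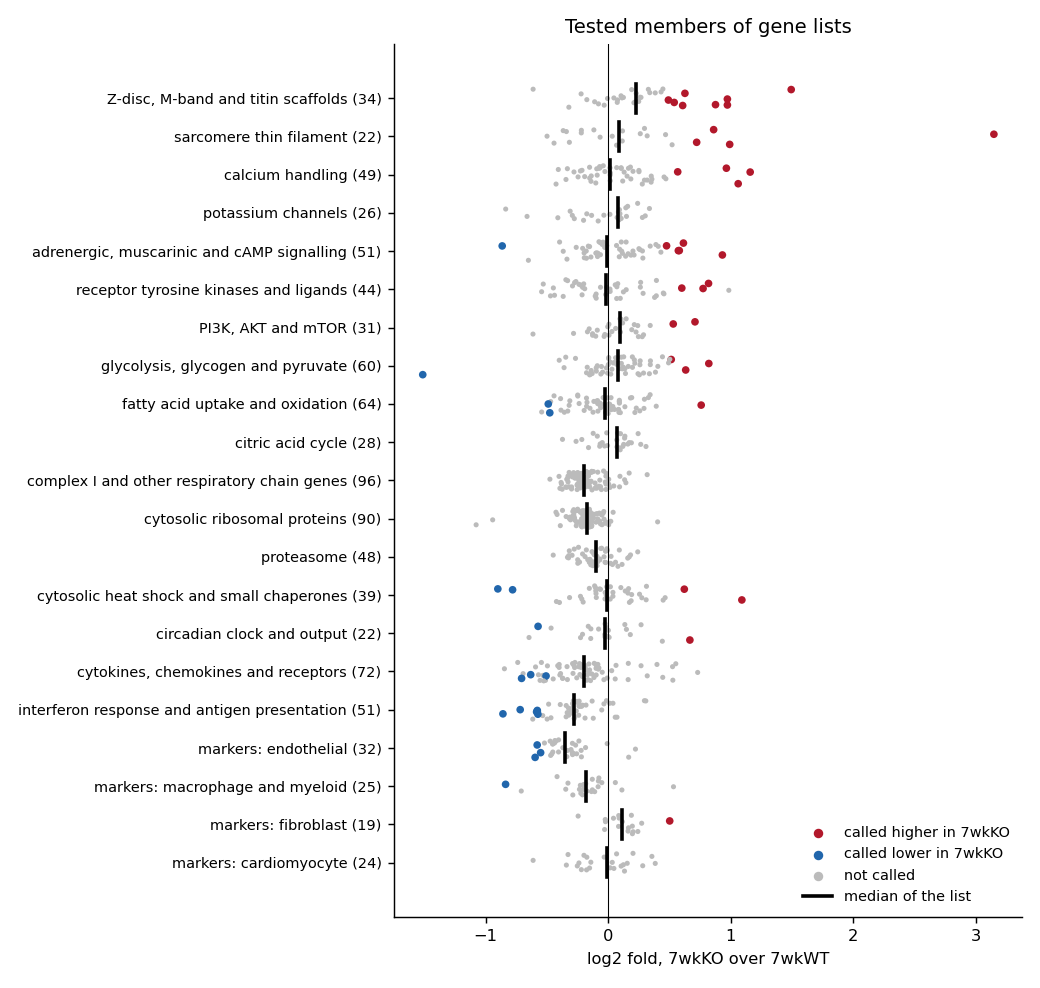
Log2 fold of 7wkKO over 7wkWT for each tested member of 21 gene lists, the number tested in brackets, with members called higher in red, called lower in blue and the list's median as a black bar. The endothelial and interferon medians lie at -0.35 and -0.28, the Z-disc median lies at 0.22, and the cardiomyocyte markers centre on -0.01.

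Fetal and hypertrophic genes were called more often than the 2.37% of all tested genes. Of 25 tested members 16 were called higher (64%), of 22 atrial and conduction markers 11 (50%), and of 62 matrix genes 9 (14.5%). In each of these lists 0 were called lower, and the lists overlap. Their members were chosen with earlier results of these data known. Of the 284 called genes 128 were in none of the 79 lists, 91 of them higher and 37 lower. Of these, Ndnf, a secreted neurotrophic factor, had FPKM 2.79 in 7wkKO and 0.679 in 7wkWT in the authors' deposited table (log2 fold 2.04 ± 0.40, Cuffdiff q = 0.004995). Sorl1, a sorting receptor, had FPKM 2.13 in 7wkKO and 1.08 in 7wkWT in the authors' deposited table (log2 fold 0.98 ± 0.34, Cuffdiff q = 0.004995). Prnp, the prion protein gene, had FPKM 101 in 7wkKO and 68.3 in 7wkWT in the authors' deposited table (log2 fold 0.57 ± 0.27, Cuffdiff q = 0.0200). Ndrg4, which is abundant in heart and brain, was listed at FPKM 191 in 7wkKO and 129.6 in 7wkWT in the authors' deposited table (log2 fold 0.56). Alox5, the leukocyte 5-lipoxygenase, was lower, with FPKM 4.35 in 7wkKO and 7.28 in 7wkWT in the authors' deposited table (log2 fold -0.74 ± 0.30, Cuffdiff q = 0.004995). Tesc, which encodes tescalcin, a calcium-binding partner of the sodium proton exchanger, was lower, with FPKM 112 in 7wkKO and 172 in 7wkWT in the authors' deposited table (log2 fold -0.62 ± 0.25, Cuffdiff q = 0.004995). Of 81 axon guidance genes and cadherins, a list that holds none of these, 2 were called higher and 4 lower. Cdh4 of that list, which encodes R-cadherin, rose to FPKM 2.78 in 7wkKO, against 0.723 in 7wkWT, in the authors' deposited table.

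Transcripts without a protein name were also called. Among 534 tested gene models and long noncoding RNAs, taken by the form of their symbols, 4 were called higher and 7 lower. That is a share of 2.06% called, near the 2.37% of all tested genes. H19 and Firre, given next, were called as well but lie outside that list. H19, an imprinted noncoding RNA of fetal tissues, had FPKM 7.11 in 7wkKO and 4.002 in 7wkWT in the authors' deposited table (log2 fold 0.83 ± 0.33, Cuffdiff q = 0.004995). Firre, an X-linked noncoding RNA, had FPKM 3.22 in 7wkKO and 4.68 in 7wkWT in the authors' deposited table (log2 fold -0.54 ± 0.28, Cuffdiff q = 0.0433). Malat1, an abundant nuclear RNA, had FPKM 307 in 7wkKO and 425 in 7wkWT in the authors' deposited table (Cuffdiff q = 0.352). The model 2310039L15Rik had the largest fall among called genes, with FPKM 2.04 in 7wkKO and 6.78 in 7wkWT in the authors' deposited table (log2 fold -1.74 ± 0.62, Cuffdiff q = 0.00881). Over the autosomes and X, the share of tested genes called ran between 1.64% on X and 3.65% on chromosome 9.

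Isoform tests gave 220 calls among 15470 isoforms (1.42%), 156 higher (1.01%) and 64 lower (0.414%). Of these 211 belonged to genes that were themselves called, and 73 called genes had no called isoform. For 51 called genes at least 2 isoforms were tested. In 34 of them all tested isoforms differed in the direction of the gene, and in 17 at least 1 went the other way. Calls in which only an isoform passed numbered 9. In the authors' deposited table, 1 isoform of the transcription factor gene Gmeb1 had FPKM 1.77 in 7wkKO and 0.531 in 7wkWT (log2 fold 1.74, Cuffdiff q = 0.00691), while the gene had a q of 0.861. An isoform of Col4a5, a basement membrane collagen, had FPKM 7.94 in 7wkKO and 3.14 in 7wkWT in the authors' deposited table (log2 fold 1.34, Cuffdiff q = 0.0391; gene q = 0.0942). An isoform of Nav2, a regulator of the cytoskeleton in neurites, had FPKM 4.39 in 7wkKO and 1.93 in 7wkWT in the authors' deposited table (log2 fold 1.18, Cuffdiff q = 0.00691; gene q = 0.991). An isoform of Rps6ka1, a kinase downstream of ERK, was lower, with FPKM 1.71 in 7wkKO and 4.21 in 7wkWT in the authors' deposited table (log2 fold -1.30, Cuffdiff q = 0.0119; gene q = 0.0865). The others were isoforms of Mfap3l, Fnbp1 and Ehbp1, which were higher, and of Abca3 and Ccdc85a, which were lower.

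Shares of isoforms within a gene differed by at least 20 percentage points in 385 of 3525 genes that had more than 1 isoform and reached a summed FPKM of 1 in 7wkKO and in 7wkWT. The deposited test is of levels and not of shares, and the spread of a share between samples is unknown. Where that sum reached 10 in 7wkKO and in 7wkWT, 61 of 1694 genes differed that far, and 1 of these 61 had a called isoform. The largest difference was in Il15ra, the receptor chain that presents interleukin 15. One of its isoforms held 73.4% of the summed isoform FPKM in 7wkKO and 40.9% in 7wkWT in the authors' deposited table (Cuffdiff q of its level = 0.3801). An isoform of Actr3, of the actin-nucleating Arp2/3 complex, held 78.7% in 7wkKO and 46.4% in 7wkWT in the authors' deposited table (Cuffdiff q = 0.601). For Kcnj3, an atrial potassium channel subunit, 1 isoform held 3.77% in 7wkKO and 33.2% in 7wkWT in the authors' deposited table (Cuffdiff q = 0.797). Celf2, a splicing regulator, had 1 isoform at 45.0% in 7wkKO and 17.8% in 7wkWT in the authors' deposited table (Cuffdiff q = 0.814).

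**Figure D5:**
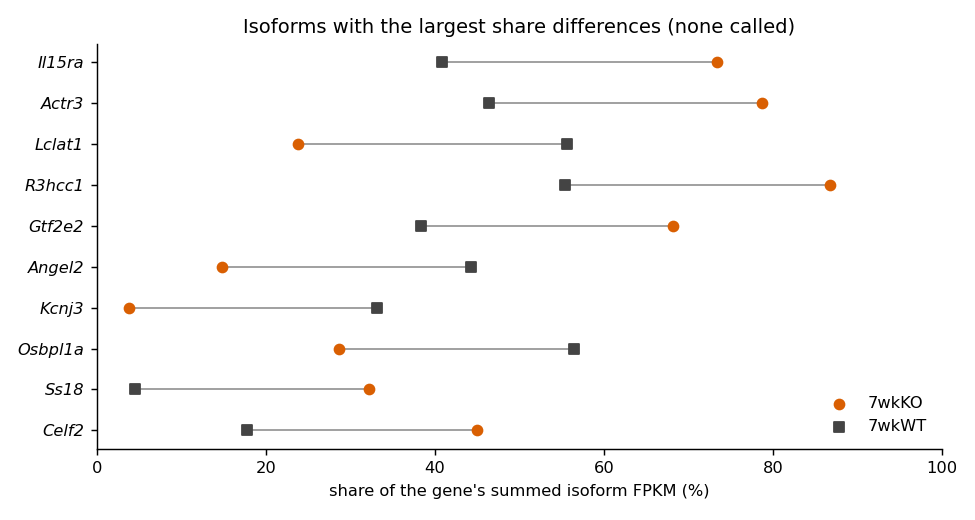
Share of the summed isoform FPKM held by 1 isoform of each of 10 genes in 7wkKO (orange circles) and 7wkWT (dark squares), for the largest differences among genes with a summed FPKM of at least 10. The shares differ by up to 32.5 percentage points, and none of these isoforms was called by level.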

How the data were processed

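Cardiac RNA was measured by RNA-seq with mRNA enriched on poly(T) beads and stranded libraries, per the labels' protocols. TopHat2, Cuffdiff and the build mm10 are named in the submitters' processing notes, and no source used here gives their versions, options, annotation or use of strand. Group levels were deposited by the authors as FPKM, 1 value for each group of 3 samples, in gene and isoform tables. The p-values and q-values, and the test statistic (a score without bounds), were also deposited by the authors, per the file headers. Depth per sample is unknown, so no interval could be given.

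The labels gave the groups. Folds were computed again as log2 of 7wkKO over 7wkWT FPKM with no pseudocount, over rows with status OK, since the deposited fold column held cells that were not numbers. Calls were deposited q-values under 0.05, for genes and for isoforms. Implied standard errors are the log2 fold divided by the deposited statistic. Gene lists (79) are described by counts and medians only. The members and lists were chosen with earlier results of these data known. Named genes were Egfr, Ppp2r3a and the 5 tested genes on each side of Egfr, the 15 largest rises and 15 largest falls of genes that reached FPKM 1 in each group, and the 10 most abundant called genes. Up to 5 called members of each list in each direction and its 2 most abundant members were added, with the 10 largest isoform calls without a gene call (9 existed) and the 10 largest share differences. Other genes named were picked out after their values were seen. Of the files' rows, 27 gene symbols had been turned into dates and 15 tested rows joined several symbols. Neither these nor mitochondrially encoded transcripts were named, and 1 row without values in each table was not used. Transcript lengths came from GENCODE M21, and promoters from RefSeq (GRCm38.p6), matched by symbol where the start lay within 1000 bases of the locus end. Starts of loci were raised by 1 to browser positions. The alternatives were other thresholds, a fold minimum, FPKM filters, adjustment computed again, the statistic alone, a pseudocount, centring, the isoform table, a second listing of the 7wkKO levels and, for motifs, a shorter promoter window. The calling step was tested on simulated data. Software was SciPy 1.17.1, Matplotlib 3.10.9, pandas 2.3.3 and NumPy 2.4.6 on Python 3.11.15.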

Additional observations from a re-analysis of the deposited data

Results flagged for a closer look

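Small nuclear and nucleolar RNAs that the authors did not test were listed in 7wkKO and at 0 in 7wkWT. In the authors' deposited table Scarna17 was at FPKM 718.782 in 7wkKO, Snora34 at 5.60975 and Snord16a at 37.8, each with 0 in 7wkWT. There were 3 such small RNA genes of at least FPKM 5 in 7wkKO and 0 in 7wkWT, and 5 with 0 in 7wkKO and at least FPKM 5 in 7wkWT. Snord49a was at 0 in 7wkKO and at FPKM 783 in 7wkWT in the authors' deposited table. None of these differences was tested, and the number of fragments behind them is unknown.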

How the results depend on the processing

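Called genes numbered 136 (108 higher, 28 lower) at a deposited q under 0.01 and 430 (278 higher, 152 lower) at q under 0.1, against 284 at q under 0.05. With a fold of at least 1.5 there were 190, of which 43 were lower. A normal p from the deposited statistic gave 14 genes, 14 higher and 0 lower, and all 14 were among the 284. It gave 10 isoforms, and q under 0.01 gave 112 isoforms, against 220. The named and called genes that lost their call under that p numbered 270, and the cause of the gap between the statistic and the p was not tested. An FPKM of at least 1 in both groups left 253 called genes, and p adjusted again over tested rows left 284. A summed isoform FPKM of at least 5 left 136 genes of 2456 with a share difference of 20 points, against 385 of 3525. Of 395 list medians under alternatives, 376 moved by under 0.1 on the log2 scale, and 1 reversed: the Schwann and neuronal list was at -0.011 with FPKM of at least 1 and at 0.17 otherwise. Centring moved no list by 0.1, since the median of all tested genes was -0.000634. With log2 of FPKM + 1, folds of low genes shrank, for example from 2.15 to 1.37 for Aqp8 and from 2.31 to 1.07 for Edn3. The 7wkKO levels listed in the comparison with 9 weeks differed by a median of 0.01 on the log2 scale over 11504 genes and changed no direction among named genes. With the 250 bases before the start alone, 18 of 21 motif percentages stayed inside their exact binomial interval, and the others, over all promoters, were lower: CATTCCT was at 3.53%, TGANTCA at 4.14% and CACGTG at 8.76%. Leaving out single replicates was not possible, because the tables hold 1 value per group. No paired analysis was possible because no value per sample was used and the labels give no pairing. The absence of depth and of levels per sample limits every statement to the authors' own test.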
